A study of Mus musculus with 10 samples.

Results

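Bone morphogenetic protein (BMP) signaling was described through 10 genes, found by exact symbol match among the 18384 genes listed in the mRNA-seq data of cultured mouse adipocyte precursors (APs). They comprise the secreted ligands Bmp2, Bmp4 and Bmp6, the protease Bmp1, the receptors Bmpr1a and Bmpr2, the antagonists Grem1 and Chrdl1, and the pathway targets Id1 and Smad6. mRNA-seq was performed on 3 control cultures (replicates 1, 2 and 3) and 3 cultures incubated with the type 2 cytokine IL-4 (replicates 4, 5 and 6). APs had been isolated from subcutaneous white adipose tissue (scWAT) of C57BL/6 J mice by magnetic depletion of cells carrying CD45 or CD31 followed by enrichment for SCA-1, without genetic modification in either group. IL-4 was added the day after seeding, and the cultures sequenced are those of the 4-day IL-4 incubation. The age of the mice and whether the cultures of a group came from separate animals are not given in the sources used here, so p-values measure only the spread between these cultures, which may be technical.

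BMPs are secreted dimers of the TGF-β family. They bind a complex of type I receptors, such as BMPR1A, and type II receptors, such as BMPR2, which phosphorylates SMAD1, SMAD5 and SMAD9. These enter the nucleus with SMAD4 and switch on targets that include the Id genes and the inhibitory Smad6 and Smad7. Outside the cell, antagonists such as gremlin, noggin and the chordin family bind the ligands. BMP1 belongs to a different protein family despite its name: it is an astacin metalloprotease that processes procollagens and cleaves chordin. In adipose tissue, BMP2 and BMP4 are known for committing precursors to the adipocyte lineage.

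Library totals were 28526782 to 29057787 expected counts, the estimated number of reads per gene. Of the genes listed, 14009 passed a filter on low counts and were tested, including all 10 BMP genes. Levels are given in FPKM, which divides by transcript length and allows genes to be compared with each other. Differences between groups were tested on counts with edgeR's quasi-likelihood test, and adjusted p refers to the Benjamini-Hochberg adjustment over all genes tested. Normalized counts are counts divided by the library size after TMM scaling. All 9 AP markers examined were detected (4 higher and 2 lower with IL-4), with a summed FPKM of 1100 to 1150 in control cultures and 1140 to 1210 in IL-4–treated cultures. Markers of macrophages were also present in spite of the CD45 depletion: their summed FPKM over 12 markers was 3240 to 4160 in control cultures and 1290 to 1670 in IL-4–treated cultures, 10 of the 12 were lower with IL-4 and 1 higher, and none was at 0. Most of the macrophage sum was Lyz2, with a mean of 2739 FPKM in control and 776.4 with IL-4. The 1 higher marker was Mrc1 (mean of 93.39 to 145.5). Cd68 also had a higher mean (247.4 to 287.9) but did not pass the test (edgeR adjusted p = 0.0572). The 7 smooth muscle and pericyte markers were all lower with IL-4, with sums of 819 to 862 and 253 to 291. Most of this was Acta2, with means of 796.2 and 259.6. The sums of 8 endothelial markers were 14.3 to 17.3 over all 6 libraries, although 2 of the 8 were higher and 3 lower with IL-4. Those of 6 mature adipocyte markers were 32.8 to 38.8 and 55.0 to 78.6 (Lep and Cidec at 0, 1 marker tested and higher). Nearly all of this was Fabp4, the marker tested, at 32.82 to 38.62 and 54.63 to 78.32. The sums of 4 mesothelial markers were 6.35 to 7.30 and 9.72 to 11.4 (2 tested, Krt19 and Wt1, both higher). Most of this was Krt19, at 5.99 to 6.86 and 8.77 to 10.42, whereas the sparse Msln and Upk3b had lower means with IL-4. The sums of 6 lymphocyte markers were at most 0.15, with Cd3e and Cd3g among those at 0 in every library. The part of these shifts in the results on BMP genes was not tested, and in such bulk samples fewer cells of a type and less RNA per cell cannot be told apart.

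IL-4–treated APs had more mRNA of the chordin-like antagonist Chrdl1, of Bmp1 and of Bmp2, and less of the antagonist Grem1 and of the targets Smad6 and Id1. Of the 10 genes, 3 were higher, 3 were lower and 4 did not pass an adjusted p of 0.05. Among all genes tested, 37.4% passed, 19.0% as higher and 18.4% as lower. The 3 that rose also exceeded a log2 fold change of 1, which 5.77% of all genes did in that direction. None of the 3 that fell did. The median log2 fold change over the 10 genes was -0.08, and over all genes tested it was 0.003.

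**Figure D1:**
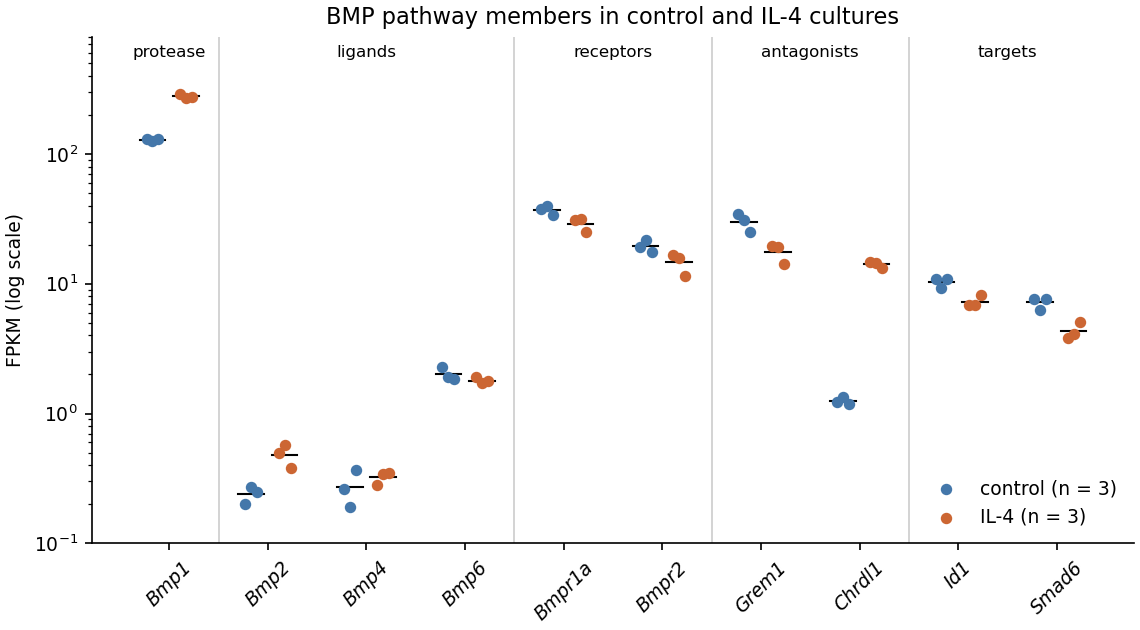
FPKM on a log scale of the 10 BMP genes in each library, with control cultures in blue, IL-4–treated cultures in orange (3 each) and horizontal lines at the group means. Chrdl1 lies between 1.18 and 1.33 in control and between 13.21 and 14.67 with IL-4, Bmp1 is the most abundant of the 10 in both groups, and Bmp2 and Bmp4 lie below 1 in all libraries.

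The promoter sequences of Smad6 and Grem1 are shown because both genes fell and the sequence table covers them. They give the bases just before the outer end of the annotated gene, on the gene's own strand (RefSeq, GRCm38.p6), and capitals mark one match to a GC-rich motif that BMP-activated SMADs can bind (GGAGCC in Smad6 and GGCGCC in Grem1).
Smad6 (chr9:64022086-64022309, minus strand, 224 bases): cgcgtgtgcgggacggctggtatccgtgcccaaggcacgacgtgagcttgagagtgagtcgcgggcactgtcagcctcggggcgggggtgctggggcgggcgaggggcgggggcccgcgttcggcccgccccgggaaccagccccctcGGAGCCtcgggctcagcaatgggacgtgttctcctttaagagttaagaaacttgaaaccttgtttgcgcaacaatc
Grem1 (chr2:113758649-113758898, minus strand, 250 bases): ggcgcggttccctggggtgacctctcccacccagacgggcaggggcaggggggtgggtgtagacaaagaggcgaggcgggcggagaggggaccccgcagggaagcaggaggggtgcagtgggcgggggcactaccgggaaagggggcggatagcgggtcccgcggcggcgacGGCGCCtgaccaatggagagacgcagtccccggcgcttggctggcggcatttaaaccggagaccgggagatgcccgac
The match in Smad6 begins 76 bases before the outer end of the annotated gene and that in Grem1 78 bases before it. Promoters of 6 of the 10 genes were in the table. Over both strands of the 250 bases before each start in the table, GGCGCC occurred in Grem1, Bmpr1a and Bmpr2 and in 9.59% of all 32851 promoters, and GGAGCC in Smad6 and Bmp4 and in 8533 of the 32851. The shorter SMAD motif CAGAC occurred in Grem1 and Bmp6 and in 42.2% of promoters. Neither GTCTAGAC (0.167% of promoters) nor the STAT6-type motif, TTC and GAA separated by 4 bases (5.85%), was found in any of the 6. These are matches of letters only, since binding was not measured here.

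Of Bmp2, Bmp4 and Bmp6, Bmp6 was the most abundant and did not pass the test, whereas the sparsely read Bmp2 was higher with IL-4. Bmp2 (Entrez 12156, chromosome 2, 133552159 to 133562896, mm10) was covered by 20, 27 and 25 reads in control cultures against 51, 58 and 39 in IL-4–treated cultures. Its FPKM was 0.20, 0.27 and 0.25 against 0.50, 0.57 and 0.38. Every IL-4 library was above every control library, at levels of under 1 FPKM throughout. On normalized counts, the groups did not overlap for 50.4% of all genes tested. The fitted log2 fold change was 1.19 ± 0.23 (SE, n = 3 per group), a 2.28-fold difference with a 95% interval of 1.58 to 3.3 (edgeR adjusted p = 0.0044). On the log2(FPKM + 1) scale, which compresses such low values, the difference was 0.26.

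Bmp4 (Entrez 12159, chromosome 14, 46383525 to 46390669) was read as rarely, with 15, 11 and 20 reads in control and 16, 19 and 19 with IL-4. The groups overlapped. The log2 fold change of 0.38 had a 95% interval from -0.25 to 1.02, or folds of 0.84 to 2.02 (edgeR adjusted p = 0.318). Bmp6 (Entrez 12161, chromosome 13, 38345716 to 38500314), a ligand also known for inducing hepcidin in the liver, had an FPKM of 2.28, 1.90 and 1.86 in control and 1.90, 1.72 and 1.77 with IL-4. These ranges overlapped, and on normalized counts the log2 fold change was 0.01 with an interval of -0.26 to 0.28 (edgeR adjusted p = 0.954). The sign of this value depended on the scaling of the libraries. Bmp6 made up 83.2%, 80.5% and 75.0% of the summed FPKM of Bmp2, Bmp4 and Bmp6 in control and 70.9%, 65.4% and 70.8% with IL-4. The sum itself was 2.36 to 2.74 in control and 2.50 to 2.68 with IL-4, with overlapping groups.

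These 3 ligands were minor among the BMP-type ligand transcripts, most of which came from Gdf10. A list of 15 ligand genes held 8 that were tested. Of these, 3 were higher, 2 lower and 3 not past the threshold, which 37.4% of all genes tested passed. The median log2 fold change of the 8 was 0.38. The highest FPKM belonged to Gdf10, which encodes BMP3B, a divergent family member. It had 35.47, 30.37 and 34.16 FPKM in control and 63.74, 60.92 and 58.77 with IL-4, a log2 fold change of 1.05 (edgeR adjusted p = 1.99e-05). Gdf10 accounted for 83.8% to 85.7% of the list's summed FPKM in control and for 90.6% to 91.5% with IL-4. Without Gdf10, the sum over the other ligands was 5.70 to 5.96 in control and 5.43 to 6.43 with IL-4, so the groups overlapped. Of that sum, Bmp2, Bmp4 and Bmp6 together held 2.36 to 2.74 in control and 2.50 to 2.68 with IL-4. Gdf6, a ligand of joint and skeletal patterning, rose by 0.47 on the log2 scale (edgeR adjusted p = 0.0284), a call lost in 8 of 13 alternative settings, with adjusted p from 0.00039 to 0.119 over them. The 2 that fell, Bmp5 and Bmp3, had 30 reads or fewer and 80 or fewer in every library and are named here after their values were seen. Their log2 fold changes were -1.44 (edgeR adjusted p = 0.014) and -0.91 (edgeR adjusted p = 0.00202).

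Bmp1 was by far the most abundant of the 10 genes, and its level more than doubled. Bmp1 (Entrez 12153, chromosome 14, 70474555 to 70520716) had an FPKM of 130.82, 125.98 and 129.68 in control and 290.5, 271.68 and 273.87 with IL-4. The spread within each group was small against the gap between them. This corresponded to a log2 fold change of 1.28 ± 0.06 (SE, n = 3 per group), or 2.44-fold with a 95% interval of 2.21 to 2.68 (edgeR adjusted p = 1.9e-06). Over the 13 alternative settings the log2 fold change was 1.11 to 1.31. Other RefSeq genes overlap Bmp1, Bmp4 and Bmp6, and whether the counting used the strand is not given in the sources used here. Of the related chordin-cleaving proteases, Tll1 moved the other way, with a log2 fold change of -1.41 (edgeR adjusted p = 0.00132) at 78 to 110 reads in control and 25 to 37 with IL-4. It is below the level set for naming genes and is given because the list has only 2 tested genes. Bmp1 made up at least 99.4% of the summed FPKM of this protease list in every library.

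The receptors Bmpr1a and Bmpr2 did not pass the threshold after TMM scaling, but did under other scalings. Bmpr1a (Entrez 12166, chromosome 14, 34411061 to 34503336), the type I receptor, had an FPKM of 37.47, 39.43 and 33.72 in control and 30.78, 31.28 and 25.12 with IL-4. Bmpr2 (Entrez 12168, chromosome 1, 59764279 to 59878081), the type II receptor, had 19.35, 21.56 and 17.61 against 16.52, 15.85 and 11.42. In FPKM every IL-4 library was below every control library for both genes. After TMM scaling the groups overlapped. Bmpr1a then had normalized counts of 5521, 5852 and 4917 in control and 5159, 5243 and 4089 with IL-4. Bmpr2 had 5809, 6519 and 5231 against 5643, 5414 and 3785. The log2 fold change of Bmpr1a was -0.17 with a 95% interval from -0.42 to 0.08 (edgeR adjusted p = 0.267), and that of Bmpr2 was -0.24 with an interval from -0.59 to 0.11 (edgeR adjusted p = 0.253). Scaled by library totals alone, the values were -0.34 (edgeR adjusted p = 0.0215) and -0.42 (edgeR adjusted p = 0.0396), but that scaling also moved the median of all genes to -0.17. Over all 13 alternatives, adjusted p ranged from 0.0204 to 0.56 for Bmpr1a and from 0.0175 to 0.546 for Bmpr2.

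In both groups the lowest library for the receptors was the one that stood apart by transcript length. Control replicate 3 and IL-4 replicate 6 had relatively more counts from short transcripts and fewer from long ones than the other libraries of their group. Relative to the group mean, the median gene of the shortest of 5 length bins was 0.10 higher on the log2 scale in control replicate 3 and 0.20 higher in IL-4 replicate 6. In the longest bin it was -0.10 and -0.22. Bmpr2, with the longest transcript of the 10 genes (11094 bases), deviated by -0.16 and -0.36 in these libraries, and Bmpr1a (5481 bases) by -0.14 and -0.23. Id1, with the shortest (934 bases), deviated by 0.06 and 0.15. Not every BMP gene followed the trend: Grem1 (1639 bases, in the shortest bin) deviated by -0.27 and -0.33. With both libraries left out, the log2 fold changes of Bmpr1a and Bmpr2 were -0.13 (edgeR adjusted p = 0.0204) and -0.16 (edgeR adjusted p = 0.0175). The values were smaller than with all 6 libraries, and the calls changed. This setting was added after seeing the data. Over all genes it called 3576 higher and 3520 lower, in place of 2663 and 2582. The part of this length trend in the receptor result was not tested further.

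**Figure D2:**
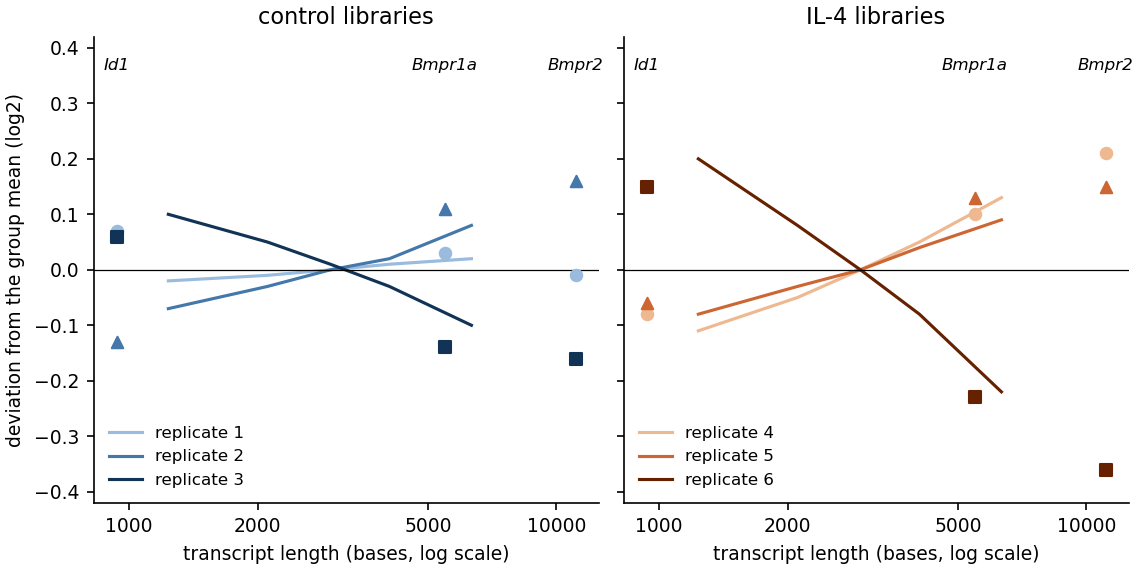
Deviation of each library from its group mean (log2) against transcript length in bases on a log scale, for control libraries on the left and IL-4 libraries on the right. Lines join the medians of 5 length bins and points show Id1, Bmpr1a and Bmpr2. Grem1, which deviated against the trend in control replicate 3 and IL-4 replicate 6, is not drawn. Control replicate 3 and IL-4 replicate 6 slope downward, and Bmpr2 deviates by -0.16 and -0.36 in them.

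The ratio of the receptors changed little: the FPKM of Bmpr1a was 183% to 194% of that of Bmpr2 in control and 186% to 220% with IL-4, with overlapping groups. Of 12 receptor and co-receptor genes, 11 were tested, and 9 of them did not pass the threshold. The median log2 fold change of the 11 was -0.04, and 37.4% of all genes tested passed the threshold. Bmpr1b, the other classical type I BMP receptor, fell from 2.87, 3.23 and 2.55 FPKM to 0.87, 0.93 and 0.81. Its log2 fold change was -1.55 (edgeR adjusted p = 3.68e-05), and its level was well below that of Bmpr1a in every library. Bambi, a pseudoreceptor without a kinase domain, rose by 0.51 on the log2 scale (edgeR adjusted p = 0.00536) from a mean FPKM of 0.84 to 1.06. Its adjusted p was 0.0519 with limma on log2(FPKM + 0.1) and from 0.0045 upward in the other alternatives.

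The largest change among the 10 genes was that of the antagonist Chrdl1, and the antagonist Grem1 moved the other way. Chrdl1 (Entrez 83453, chromosome X, 143285674 to 143394263) encodes chordin-like 1, also called ventroptin, which binds BMPs outside the cell. Its FPKM was 1.22, 1.33 and 1.18 in control and 14.67, 14.52 and 13.21 with IL-4. In the fit this was a log2 fold change of 3.68 ± 0.09 (SE, n = 3 per group), or 12.8-fold with a 95% interval of 11.1 to 14.8 (edgeR adjusted p = 1.18e-07). Across the alternative settings it was 2.75 to 3.74, the lowest on the log2(FPKM + 1) scale. By mean FPKM it was number 8 of the 10 genes in control and number 5 with IL-4, where its range overlapped that of Bmpr2.

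Grem1 (Entrez 23892, chromosome 2, 113748675 to 113758648) encodes gremlin 1, which binds BMP2 and BMP4. It had an FPKM of 34.22, 31.19 and 24.99 in control and 19.51, 19.32 and 14.2 with IL-4. The groups did not overlap, which holds for 50.4% of all genes tested on normalized counts. As for the receptors, the lowest library of each group was control replicate 3 and IL-4 replicate 6. For Grem1 this ran against the length trend, since its transcript is short and these libraries had relatively more counts from short transcripts. The log2 fold change was -0.59 ± 0.16 (SE, n = 3 per group), a fold of 0.663 with a 95% interval of 0.513 to 0.857 (edgeR adjusted p = 0.0208). It kept its direction without any 1 library, but without control replicate 1 it was -0.49 (edgeR adjusted p = 0.0848) and without control replicate 2 it was -0.56 (edgeR adjusted p = 0.0689), and over all alternatives the adjusted p ranged from 5.29e-07 to 0.0848. The FPKM of Chrdl1 was 3.57%, 4.26% and 4.72% of that of Grem1 in control and 75.2%, 75.2% and 93.0% with IL-4. Grem1 transcripts were thus still the more abundant of the pair in every library.

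**Figure D3:**
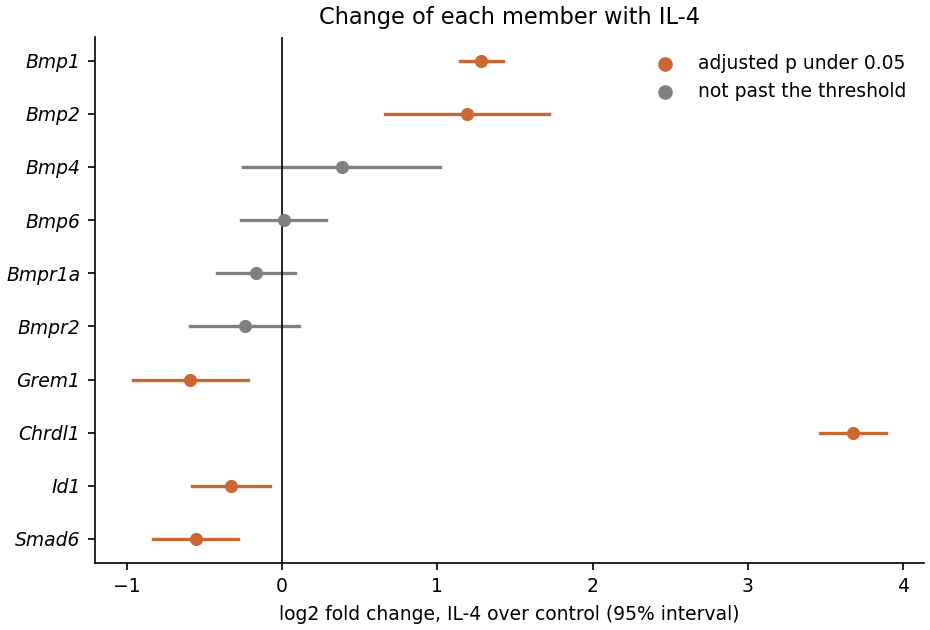
Log2 fold change of each of the 10 BMP genes, IL-4 over control, with 95% intervals from edgeR (3 libraries per group); orange marks an adjusted p under 0.05 and gray the others. Chrdl1 stands at 3.68, Bmp1 and Bmp2 at 1.28 and 1.19, and the intervals of Bmp4, Bmp6, Bmpr1a and Bmpr2 span 0.

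The other extracellular antagonists and modulators moved in both directions. Of 19 genes in the list, which includes Chrdl1 and Grem1, 14 were tested. Of these, 5 were higher (Chrdl1 among them), 3 lower (Grem1 among them) and 6 not past the threshold, with a median log2 fold change of 0.10. Over all genes tested, 19.0% were higher and 18.4% lower. Chrd, which encodes chordin itself, was 1.90, 2.07 and 1.93 FPKM in control and 3.85, 4.28 and 4.34 with IL-4, a log2 fold change of 1.25 (edgeR adjusted p = 2.08e-05). Kcp, or kielin/chordin-like protein, which is known to enhance BMP signaling, rose by 1.31 (edgeR adjusted p = 1.03e-05) from a mean of 2.01 to 4.42 FPKM. Nbl1, a DAN family antagonist, rose by 1.10 (edgeR adjusted p = 2.11e-05) and was the most abundant of the risers, at 48.26 to 55.63 FPKM in control and 92.28 to 110.05 with IL-4. Bmper, a chordin-type modulator, rose by 0.18 (edgeR adjusted p = 0.0292), a call lost in 9 of 13 alternative settings, with adjusted p from 0.00461 to 0.932 over them. Chrdl2, the other chordin-like gene, had at most 6 reads in any library and was not tested.

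Among the antagonists that fell, Fst, or follistatin, which binds activins and some BMPs, changed most. It went from 13.41, 13.39 and 13.99 FPKM to 4.04, 3.82 and 3.72, a log2 fold change of -1.65 (edgeR adjusted p = 1.43e-06). Nog, which encodes noggin, had 11 to 14 reads in control and 11 to 21 in IL-4–treated cultures, a log2 fold change of 0.60 that did not pass the threshold (edgeR adjusted p = 0.172). The most abundant gene of the list was Fstl1, a secreted follistatin-like glycoprotein of mesenchymal cells, with a mean of 563.6 FPKM in control and 510.0 with IL-4 and a log2 fold change of 0.03 (edgeR adjusted p = 0.778). Summed FPKM over the list without Fstl1 was 209 to 222 in control and 235 to 242 with IL-4. Within this sum, the share of Grem1 was 11.9% to 15.4% in control and 5.87% to 8.30% with IL-4.

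**Figure D4:**
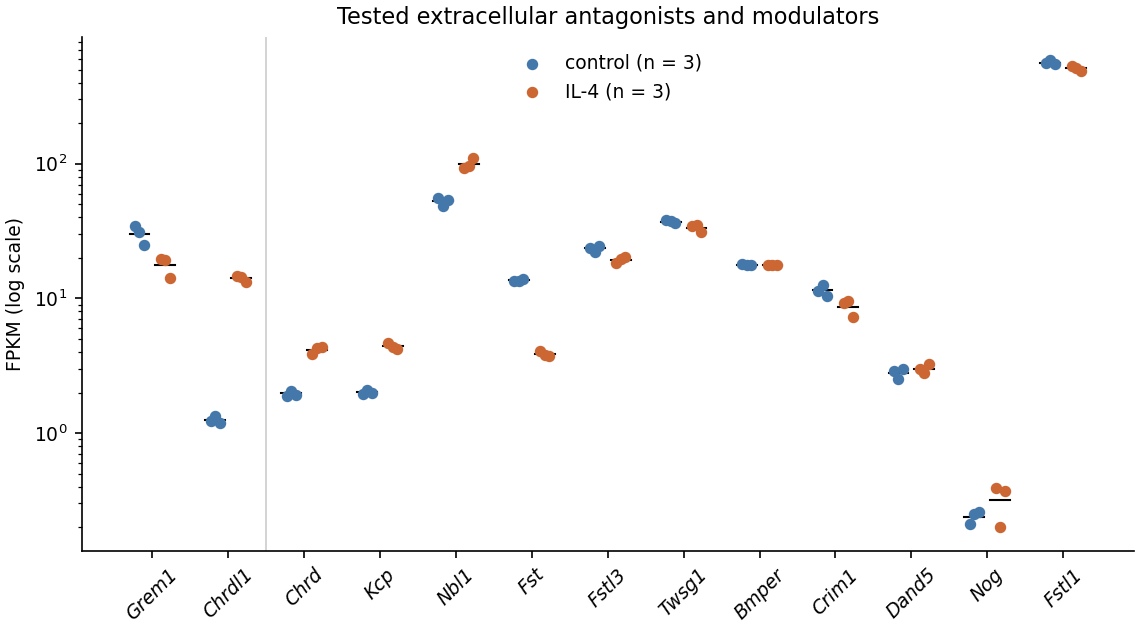
FPKM on a log scale of 13 tested extracellular antagonists and modulators in each library, control in blue and IL-4 in orange (3 each), with lines at the group means and the BMP genes Grem1 and Chrdl1 on the left. Chrdl1, Chrd, Kcp and Nbl1 are higher in all IL-4 libraries, and Grem1 and Fst are lower in all of them. Fstl1, Fstl3, Twsg1 and Crim1 are also lower in all IL-4 libraries in FPKM, but did not pass the threshold after TMM scaling.

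Both pathway targets among the 10 genes were lower with IL-4 in every setting tried. Smad6 passed the threshold in all of them, and Id1 in 7 of 13 alternatives. Smad6 (Entrez 17130, chromosome 9, 63953076 to 64022085) encodes an inhibitory SMAD that blocks BMP type I receptors. Its FPKM was 7.69, 6.32 and 7.58 in control and 3.83, 4.10 and 5.10 with IL-4. No IL-4 library reached the lowest control library, and groups without overlap on normalized counts were found for 50.4% of all genes tested. Smad6 had a log2 fold change of -0.56 ± 0.12 (SE, n = 3 per group), a fold of 0.68 with a 95% interval of 0.562 to 0.823 (edgeR adjusted p = 0.00722). Over the alternatives it was -0.73 to -0.47, with adjusted p from 3.54e-05 to 0.0363.

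Id1 (Entrez 15901, chromosome 2, 152736251 to 152737410), an inhibitor of basic helix-loop-helix factors and a direct BMP target in many cells, had an FPKM of 10.86, 9.35 and 10.88 in control and 6.80, 6.89 and 8.20 with IL-4. The groups did not overlap, but the gap was narrow on normalized counts, where the lowest control library had 221.7 and the highest IL-4 library 213.7. On that scale 50.4% of all genes tested had groups without overlap. The log2 fold change was -0.33 ± 0.11 (SE, n = 3 per group), a fold of 0.796 with a 95% interval of 0.669 to 0.945 (edgeR adjusted p = 0.0437). The call was lost with DESeq2 (DESeq2 adjusted p = 0.0554), with upper-quartile scaling (edgeR adjusted p = 0.0531), and without control replicate 1 or 3 or IL-4 replicate 4 or 5, where the edgeR adjusted p was 0.141, 0.117, 0.136 and 0.146. The lowest adjusted p over the alternatives was 0.00527.

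The wider set of BMP targets did not move in one direction. Of 10 genes tested, 4 were higher, 4 lower and 2 not past the threshold, with a median log2 fold change of -0.13. Over all genes tested, 19.0% were higher and 18.4% lower. The members of the Id family diverged. Id3, the most abundant, had 67.39, 64.86 and 72.44 FPKM in control and 41.45, 39.90 and 53.85 with IL-4, a log2 fold change of -0.42 (edgeR adjusted p = 0.0152), and its adjusted p ranged from 4.63e-07 to 0.0636 over the alternatives, with 0.0529, 0.0567 and 0.0636 without control replicate 3, IL-4 replicate 4 or IL-4 replicate 5. Id2 did not pass the threshold, with a log2 fold change of -0.08 (edgeR adjusted p = 0.666). Id4 rose from 4.82, 5.92 and 5.36 FPKM to 16.12, 14.15 and 16.22, a log2 fold change of 1.70 (edgeR adjusted p = 7.06e-06). The FPKM of Id4 was thereby 7.15% to 9.13% of that of Id3 in control and 30.1% to 38.9% with IL-4. Atoh8, a basic helix-loop-helix factor, fell from a mean of 8.89 to 4.16 FPKM, with a log2 fold change of -0.92 (edgeR adjusted p = 3.4e-05).

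The inhibitory SMADs moved in opposite directions. Smad7, which restrains both TGF-β and BMP receptors, had 6.39, 5.92 and 6.19 FPKM in control and 6.76, 7.14 and 7.47 with IL-4, a log2 fold change of 0.38 (edgeR adjusted p = 0.00227). This call was lost with limma on FPKM (limma adjusted p = 0.0531 and 0.0506 with pseudocounts of 1 and 0.1, against a lowest value of 8.19e-05 over all alternatives), whereas the groups did not overlap in FPKM. A lack of overlap on normalized counts was seen for 50.4% of all genes tested. Smurf1, a ubiquitin ligase that targets SMAD1 and SMAD5 and works with SMAD6 and SMAD7 at receptors, rose by 0.81 on the log2 scale (edgeR adjusted p = 0.00052) from a mean of 18.58 to 28.84 FPKM. Smad1, the BMP-activated SMAD, rose by 0.42 (edgeR adjusted p = 0.00201) from 11.06 to 13.1 FPKM. The shared partner Smad4, the most abundant of this list by mean FPKM in control (30.28), had a log2 fold change of 0.01 (edgeR adjusted p = 0.907). Of the 8 genes in the list 3 were higher, 1 lower and 4 not past the threshold, against 37.4% past it among all genes.

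Over the 6 lists together, 50 of 64 genes were tested, of which 15 were higher, 11 lower and 24 not past the threshold, against 37.4% past it among all genes. The median log2 fold change was 0.02. Beyond a log2 fold change of 1, 9 were higher and 4 lower, against 11.0% of all genes in either direction. The split by role is a count of calls, and a difference between the roles was not tested.

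**Figure D5:**
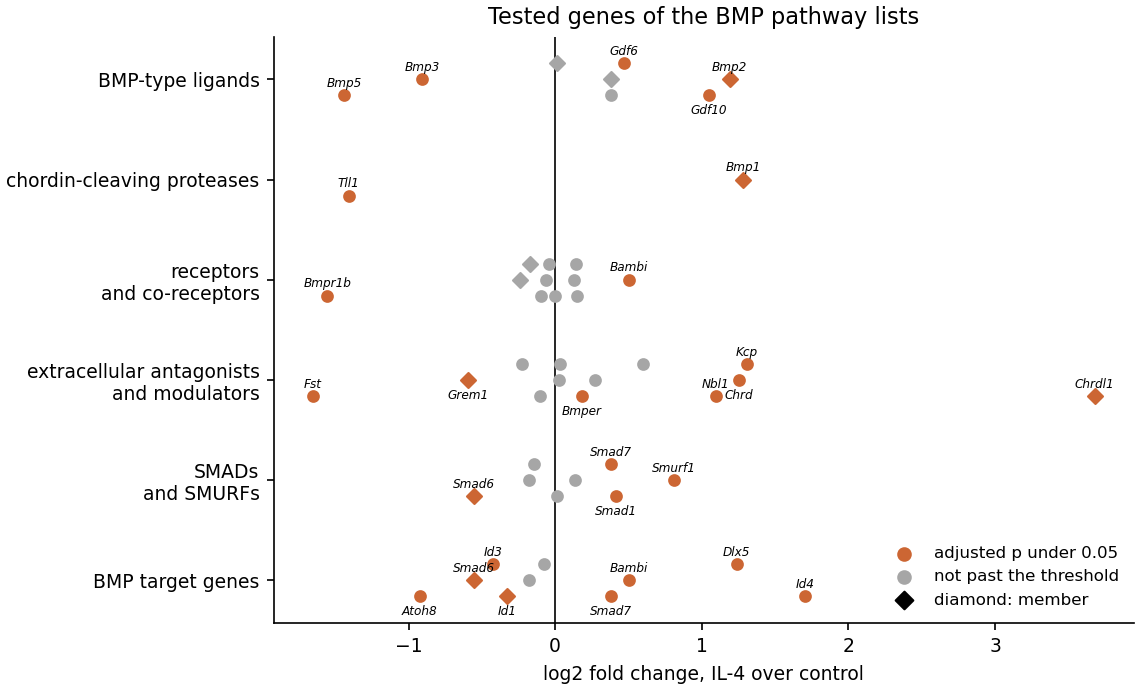
Log2 fold change, IL-4 over control, of tested genes in 6 BMP pathway lists. Each point is a gene, orange where the adjusted p is under 0.05 and gray elsewhere, and diamonds are the 10 BMP genes. Every list has genes on both sides of 0, Chrdl1 lies farthest right at 3.68 and Fst farthest left at -1.65.

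By mean FPKM, the order of the 10 genes in control was Bmp1, Bmpr1a, Grem1, Bmpr2, Id1, Smad6, Bmp6, Chrdl1, Bmp4 and Bmp2. In that order only Bmpr1a and Grem1, and Bmp4 and Bmp2, had overlapping ranges with their neighbour. With IL-4 the order was Bmp1, Bmpr1a, Grem1, Bmpr2, Chrdl1, Id1, Smad6, Bmp6, Bmp2 and Bmp4, and the overlapping neighbours were Grem1 with Bmpr2 and Bmpr2 with Chrdl1. The positions of Chrdl1, Bmp2 and Bmp4 differed between the groups, and those of Id1, Smad6 and Bmp6 shifted by 1 as Chrdl1 passed them.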

How the data were processed

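Analyses used the 6 mRNA-seq libraries only; the small RNA libraries measure none of these genes. Per the labels and the methods of the study, the authors mapped filtered reads to mm10 with HISAT and estimated gene levels with Bowtie2 and RSEM (StringTie is also listed in the submitters' processing notes). The deposited expected counts are not normalized, and 87.0% of those above 0 are whole. The deposited FPKM were scaled by the authors for transcript length and library size, with the length used given per gene. Genes not listed in a library were taken as 0, 26 symbols altered to dates were restored by Entrez number, and a row naming no gene (0.00016% of counts) was left out.

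Counts were rounded to whole numbers. Genes were kept by filterByExpr at a minimum count of 10 and a total of 15, libraries scaled by TMM, and groups tested with edgeR 4.0.16 (quasi-likelihood) in R 4.3.3. Other settings were DESeq2 1.42.0, upper-quartile scaling, library totals, no filter, limma 3.58.1 on log2(FPKM + 1) or log2(FPKM + 0.1), and leaving out each library. Leaving out control replicate 3 and IL-4 replicate 6 together, and all settings but DESeq2 and single left-out libraries for the pathway lists, were added after seeing the data. The tests were tried on simulated data. The 10 genes and the lists were chosen with earlier results of these data known. From the pathway lists, genes past an adjusted p of 0.05 whose mean reached 100 normalized counts, and the gene with the highest FPKM of each role, were named. Others are named after their values were seen. Some list genes are counted but not reported here by name, nor drawn in the plots. Length bins used genes with at least 100 mean normalized counts. Coordinates are from RefSeq on GRCm38, the assembly of mm10, and promoters from RefSeq on GRCm38.p6. Intervals cover 95%. Python 3.11.15 with numpy 2.4.6, pandas 2.3.3 and matplotlib 3.10.9 was used for the rest.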

Additional observations from a re-analysis of the deposited data

How the results depend on the processing

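Bmp1, Bmp2, Chrdl1 and Smad6 kept their direction and their call in all 13 alternative settings. The lower calls depended on the scaling and on the libraries included. With library totals, limma on log2(FPKM + 1) and limma on log2(FPKM + 0.1), 5 of the 10 BMP genes were lower (Bmpr1a and Bmpr2 added) instead of 3. Genes called higher over all genes were then 1704, 1697 and 1694 in place of 2663, those called lower 4963, 4916 and 4904 in place of 2582, and pathway genes called lower 21, 20 and 20 in place of 11. The share of higher calls was 50.8% with TMM and 25.6%, 25.7% and 25.7% in these settings, and the median of all genes moved to -0.17, -0.13 and -0.17. Beyond a log2 fold change of 1, limma on log2(FPKM + 1) called 348 genes higher and 352 lower, in place of 809 and 737. Leaving out control replicate 3 and IL-4 replicate 6 together was a choice made after seeing the data. It called 3576 genes higher and 3520 lower over all genes. Among the 10 BMP genes, 5 were then lower. Leaving out 1 library at a time gave 1 to 3 lower, with 1 without control replicate 1. The log2 fold change of Bmp6, near 0 throughout, reversed to -0.01 with upper-quartile scaling, -0.16 with library totals, -0.11 and -0.15 with limma, -0.03 without both libraries, and between -0.05 and 0.11 without 1 library. The causes were not tested. No paired analysis was possible because the control and IL-4 libraries share no replicate number in the labels. Depth limits Bmp2 and Bmp4, which had at most 58 reads in any library.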

Other observations

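Several BMP pathway genes known from other tissues were at the edge of detection in these cultures. Of the 64 pathway genes, 4 (Bmp10, Cer1, Hfe2 and Sost) were not listed in any library and 10 were listed but had too few reads to be tested. Bmp7, a ligand known for promoting brown adipocyte differentiation, had no read in the control libraries and at most 1 in an IL-4 library. Bmp8b, a ligand expressed in brown fat, had at most 5 reads in control and at most 1 with IL-4. Gdf5 and Gdf7 had at most 2 reads in any library, and Gdf2, which encodes BMP9, a ligand made in the liver, had at most 4. Among the antagonists, Sostdc1 had no read in control and at most 4 with IL-4, and Vwc2 had at most 2 and 8. With no filter on low counts, Sostdc1 passed the threshold (edgeR adjusted p = 0.0353) at these few reads, and the other 9 did not, with Vwc2 nearest to it (edgeR adjusted p = 0.0517).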
